A study of Danio rerio with 7 samples.

Results

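NK-lysin genes and a small set of lymphocyte signalling genes were followed in cells sorted from regenerating zebrafish hearts. The set was given by 9 gene names (nkl.1, nkl.2, nkl.3, nkl.4, ighm, lck, zap70, cd79a and dok2), and every gene ID whose zebrafish name equalled one of them, in any case and with or without a final paralog letter, was taken. This gave 8 of the 31388 gene IDs in the table, 1 for each name except nkl.1, which matched no ID and was not analysed here. Several of these genes were known to be far lower at the later time before the set was put together, so their shared direction is not independent evidence of a lymphocyte change.

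The tested pools came from ventricles taken 60 days after cryoinjury (dpi), a freezing injury from which the fish heart recovers, and were set against pools taken at 7 dpi. All fish were adults 3 to 9 months old of the genotype postnb:CreERT2;ubb:loxP-GFP-loxP-mCherry, and in both groups they were given 10 µM 4-OHT, the active form of tamoxifen, overnight at 3 and 4 dpi. The postnb promoter drives the inducible Cre, so cells that used this periostin gene at the time of treatment, and their descendants, carry mCherry for good. Replicates 1, 2 and 4 made up the 3 pools at 60 dpi, and the 4 at 7 dpi were numbered 1 to 4. Each held mCherry-positive cells from the ventricular apex of 3 to 5 hearts. No uninjured or unsorted pool was among the samples, and whether a transcript came from a labelled cell or from a cell carried through the sort was not tested.

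NK-lysins are small antimicrobial proteins of the saposin-like family that damage membranes. Cytotoxic lymphocytes store them in granules, and mammalian granulysin is a relative. In B cells the immunoglobulin heavy chain (ighm encodes that of IgM) sits on the surface with the signalling chains CD79A and CD79B. In T cells the kinases LCK and ZAP70 pass on the signal of the T cell receptor, and DOK2 is a docking protein that dampens kinase signals in T cells and, in mouse and human, also in myeloid cells. In the GRCz12tu annotation the NK-lysin genes are direct neighbours in the order nkl.4, nkl.3, nkl.2 and nkl.1, between tonsl and psmc1a.

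Values are TPM, a length-corrected abundance scaled to the same sum in every library, and carry no read depth, which is therefore unknown here. Between 10840 and 14061 IDs reached 1 TPM in the pools at 60 dpi, and between 9844 and 15431 did in those at 7 dpi. Replicate 4 had the fewest such IDs in both groups. In each library 1 or 2 of 23 IDs of genes that every cell uses, all from EEF1A1 or TBP, were also listed at 0. Of these IDs 1 was at 0 in all 7 libraries, so it says nothing of single pools. A further ID was at 0 in 60 dpi replicates 2 and 4 and in 7 dpi replicates 1 and 4. A gene listed at 0 need not be absent. Of 15130 genes tested with limma, 6.88% passed an adjusted p of 0.05 (Benjamini-Hochberg). By direction, 3.2% were called higher and 3.68% lower at 60 dpi. Of the calls 46.5% were higher at 60 dpi. That share was 31.6% when TPM was rescaled over IDs with a symbol, which moved the median log2 fold change of all genes to -0.26, against -0.04 as deposited. IDs without a symbol held 19.2, 17.2 and 15.8% of TPM in replicates 1, 2 and 4 at 60 dpi. At 7 dpi they held 20.2, 40.0, 33.8 and 30.6% in replicates 1 to 4, so the TPM of named genes was scaled unequally between pools. Without 7 dpi replicate 1 the share of calls that were higher was 56.9%. It was 35.8% and 35.6% without 60 dpi replicates 2 and 4 in turn, and 35.4% without replicate 4 of both groups.

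nkl.2 was the most abundant of the matched NK-lysins in every library that had any. Its TPM was 4.15, 0 and 68.4 in replicates 1, 2 and 4 at 60 dpi, against 445, 429, 85.7 and 238 in replicates 1 to 4 at 7 dpi. The groups did not overlap, but the highest pool at 60 dpi came close to the lowest at 7 dpi. Among all IDs, nkl.2 ranked 183rd to 947th by TPM in the 7 dpi pools, and 1566th in replicate 4 at 60 dpi. The log2 fold change on the log2(TPM + 1) scale, which understates changes of low genes, was -5.14 ± 1.098 (SE), with a limma adjusted p of 0.0164. Single libraries moved this value: it was -6.79 without 60 dpi replicate 4 and -3.73 without 60 dpi replicate 2. The call was lost without 7 dpi replicate 1 (limma adjusted p = 0.0543), with no filter on low values (0.0735) and without the mean-variance trend of the fit (0.0719). With a pseudocount of 5 the log2 fold change was -4.10. In bulk RNA, fewer cells of a type and less RNA per cell cannot be told apart, here and for every gene that follows.

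nkl.4 was listed at 0 in all 3 pools at 60 dpi, against 44.9, 79.2, 16.2 and 51.3 TPM in replicates 1 to 4 at 7 dpi. Replicate 3 was the lowest of the 7 dpi pools for nkl.4, as it was for nkl.2. The gene fell with a limma adjusted p of 0.00167 (0.000914 to 0.0144 over 17 alternatives), and no fold is given against a group listed at 0. nkl.3 was listed at 0 in all 3 pools at 60 dpi, against 0, 4.41, 7.68 and 0 TPM in replicates 1 to 4 at 7 dpi. It reached the minimum of 1 TPM in too few libraries to be tested. Its highest pool, replicate 3, was the lowest for both of the other NK-lysins.

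The matched paralogs held unequal shares of NK-lysin TPM. nkl.1, which matched no ID, is in none of these shares and sums. In the 60 dpi pools that had any, all of it was nkl.2. At 7 dpi nkl.2 made up 90.9, 83.7, 78.2 and 82.3% of the sum in replicates 1 to 4, and nkl.4 made up 9.15, 15.4, 14.8 and 17.7%. The summed NK-lysin TPM was 4.15, 0 and 68.4 at 60 dpi, against 490, 513, 110 and 289 at 7 dpi. RSEM shares reads between similar transcripts, so the split between neighbours of this family is less certain than their sum.

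dok2 had the smallest p of the set. Its TPM was 0.24, 0.26 and 0 in replicates 1, 2 and 4 at 60 dpi, against 131, 58.9, 89.7 and 46.8 in replicates 1 to 4 at 7 dpi. Every pool at 60 dpi was below 1 TPM, and every pool at 7 dpi was above 40 TPM. The log2 fold change was -6.04 ± 0.60 (SE, limma adjusted p = 0.000287), between -5.78 and -6.27 when any single library was left out, -6.86 with a pseudocount of 0.5 and -3.97 with one of 5. dok1b, which encodes another docking protein, had 28.2, 11.04 and 2.63 TPM at 60 dpi, against 28.97, 18.2, 16.1 and 27.2 TPM at 7 dpi. These values overlapped between the groups and the gene did not pass (limma adjusted p = 0.399). dok1b was singled out after its values were seen.

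**Figure D1:**
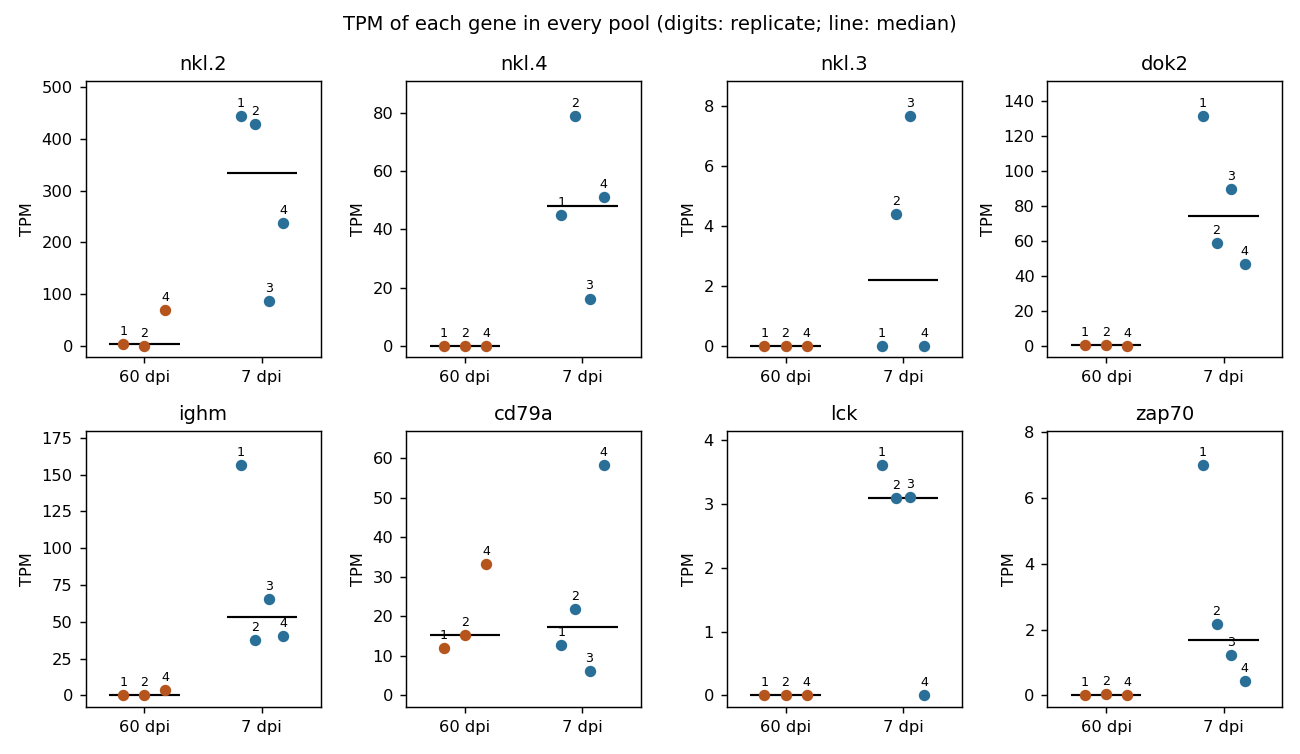
TPM of the 8 IDs in every pool, with 60 dpi on the left and 7 dpi on the right of each panel, each on its own linear axis. Points are pools labelled by replicate and lines are group medians. nkl.2, nkl.4, dok2 and ighm lie lower in every pool at 60 dpi than in any at 7 dpi, while cd79a overlaps.

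Of the B cell receptor genes, ighm and cd79b fell, and cd79a and ighd were not called. ighm was listed at 0 in replicates 1 and 2 at 60 dpi and had 3.58 TPM in replicate 4, against 156, 37.5, 65.8 and 40.1 TPM in replicates 1 to 4 at 7 dpi. The groups did not overlap, and replicate 1 was the highest pool at 7 dpi. The log2 fold change was -5.26 ± 0.75 (SE, limma adjusted p = 0.00238). It was -6.00 without 60 dpi replicate 4 and -3.51 with a pseudocount of 5, and the call held in all 17 alternatives.

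cd79a, which encodes a signalling chain of the same receptor, had 11.9, 15.3 and 33.2 TPM in replicates 1, 2 and 4 at 60 dpi, against 12.7, 22.0, 6.17 and 58.2 TPM in replicates 1 to 4 at 7 dpi. The ranges overlapped, and replicate 4, the library with the fewest detected IDs, was the highest pool of each group. The log2 fold change was 0.01 ± 0.71 (SE, limma adjusted p = 0.994), and its sign turned in 7 of 17 alternatives. At 60 dpi cd79a was the most abundant of the 8 IDs in replicates 1 and 2, and nkl.2 was in replicate 4.

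cd79b, the partner chain and not a member of the set, was listed at 0 in all 3 pools at 60 dpi, against 7.52, 9.95, 3.12 and 6.05 TPM in replicates 1 to 4 at 7 dpi. It fell with a limma adjusted p of 0.0418, a call that was lost in 10 of 17 alternatives, among them each of the 3 fits without a 60 dpi pool (0.0899 to 0.118) and the fits without 7 dpi replicates 1, 2 and 3 in turn (0.0597 to 0.0848). ighd, which encodes the heavy chain of IgD, had 0.28, 0.20 and 0 TPM at 60 dpi, against 2.74, 3.88, 1.5 and 4.14 TPM at 7 dpi. Its groups did not overlap, and it did not pass (limma adjusted p = 0.148). ighd was picked after its values were seen. The difference between the response of cd79a and that of the other receptor genes was not tested.

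**Figure D2:**
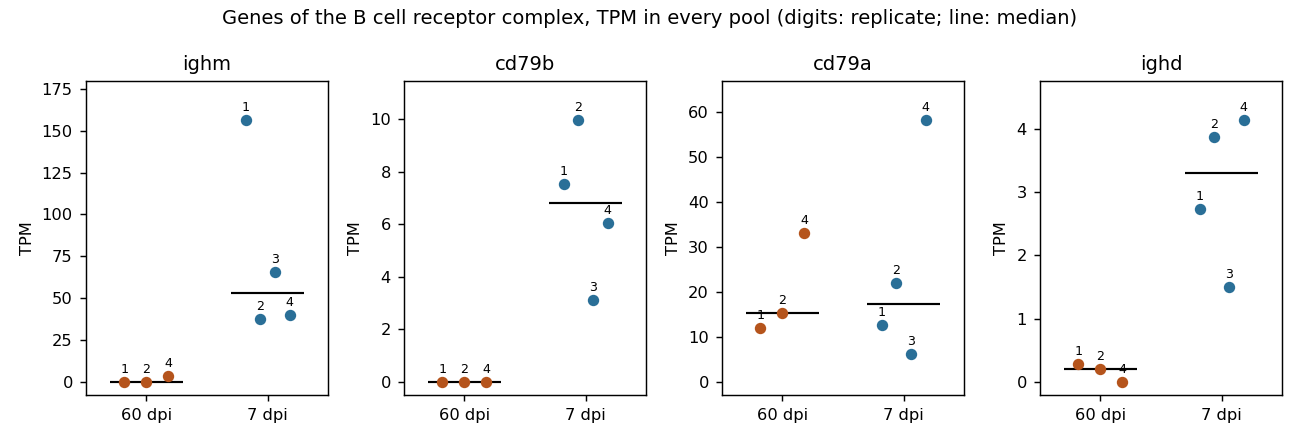
TPM of ighm, cd79b, cd79a and ighd in every pool, with 60 dpi on the left and 7 dpi on the right of each panel, on separate linear axes. Points are pools labelled by replicate and lines are group medians. ighm, cd79b and ighd lie lower in all 3 pools at 60 dpi than in any of the 4 at 7 dpi, and the 60 dpi values of cd79a, 11.9 to 33.2 TPM, lie within its 7 dpi range.

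Neither T cell receptor kinase exceeded 7.00 TPM in any pool, and most 60 dpi values were listed at 0, which sets no limit on the level. lck was listed at 0 in all 3 pools at 60 dpi, against 3.61, 3.09, 3.11 and 0 TPM in replicates 1 to 4 at 7 dpi. It did not pass (limma adjusted p = 0.218). Without 7 dpi replicate 4, which listed it at 0, it did (limma adjusted p = 0.0437), the only pass in 13 alternatives that tested it. Without replicate 4 of both groups it did not pass (limma adjusted p = 0.0759). Without 7 dpi replicates 1, 2 and 3 in turn it was not tested. zap70 had 0, 0.05 and 0 TPM in replicates 1, 2 and 4 at 60 dpi, against 7.00, 2.16, 1.23 and 0.45 TPM in replicates 1 to 4 at 7 dpi. Its groups did not overlap, yet it did not pass (log2 fold change -1.56 ± 0.71, SE; limma unadjusted p = 0.0480, adjusted p = 0.222). At these levels the pseudocount sets much of the value, which was -0.55 with a pseudocount of 5 and -2.21 with one of 0.5.

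Of the 8 IDs 7 were tested, and 4 of these (nkl.2, nkl.4, ighm and dok2) fell and none rose, in a table in which 3.68% of tested genes were called lower. For 5, these 4 and zap70, every pool at 60 dpi lay below every pool at 7 dpi, as for 11.0% of tested genes. No member had every pool at 60 dpi above every pool at 7 dpi, as 10.3% of tested genes did. The 2 members listed at 0 in all 60 dpi pools among those tested were nkl.4 and lck, and 2.49% of tested genes were so listed. nkl.4, dok2, lck and zap70 reached 1 TPM in no pool at 60 dpi, so they entered the test only through the 7 dpi pools. The number of members called was 4 in 13 of 17 alternatives, 3 with no filter, without the mean-variance trend and without 7 dpi replicate 1, and 5 without 7 dpi replicate 4.

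Within the 7 dpi pools the order of the members differed from pool to pool. nkl.2 came first in replicates 1, 2 and 4, and in replicate 3 dok2 (89.7 TPM) stood just above nkl.2 (85.7 TPM). ighm, dok2 and nkl.4 overlapped in range (37.5 to 156, 46.8 to 131 and 16.2 to 79.2 TPM), and no order among these genes held in all 4 pools. nkl.3, lck and zap70 stayed at or below 7.68 TPM in every pool.

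The wider list of NK and cytotoxic genes had 31 IDs, of which 20 were tested. In it 5 fell and none rose, and the median log2 fold change was -1.70, against -0.04 over all tested genes. Of the 20, 18 had a log2 fold change below 0, as 7815 of all 15130 tested genes did. Without the 6 genes listed at 0 throughout 60 dpi the list's median was -1.26. Of the 5, nkl.2 and nkl.4 are members of the set, and without members 3 of 18 tested genes fell (16.7%, against 3.68% of all tested genes called lower). These were prf1.2, fcer1g and il2rgb, of which prf1.2 and il2rgb, like nkl.4, passed the filter only through the 7 dpi pools. prf1.2, a gene of perforin, the pore-forming protein of cytotoxic granules, was listed at 0 in all 3 pools at 60 dpi, against 16.5, 12.97, 5.2 and 3.66 TPM in replicates 1 to 4 at 7 dpi (limma adjusted p = 0.0369). Its call was lost in 9 of 17 alternatives, among them each fit without a 60 dpi pool and without 7 dpi replicates 1, 2 and 3 in turn (0.0624 to 0.101). il2rgb, which encodes a shared chain of interleukin receptors, was likewise listed at 0 in all 3 pools at 60 dpi, against 8.78, 4.19, 7.35 and 20.1 TPM at 7 dpi (limma adjusted p = 0.0317). Its call was lost in 8 of 17 alternatives, among them each fit without a 60 dpi pool and without 7 dpi replicates 1 and 3 in turn (0.0588 to 0.0894). fcer1g, an adaptor chain of Fc receptors that myeloid cells also use, had 71.8, 128 and 6.14 TPM at 60 dpi, against 667, 398, 297 and 481 TPM at 7 dpi (limma adjusted p = 0.0189). Its call was lost in 4 of 17 alternatives, without 7 dpi replicate 1 (0.0590) and without 7 dpi replicate 4 (0.0540) among them. The number called in this list was 3 without any one 60 dpi pool or without 7 dpi replicate 3, 1 without 7 dpi replicate 1, and 6 without replicate 4 of both groups. ID2, a transcription regulator gene of innate lymphocytes that is used widely elsewhere, had 44.3, 29.3 and 65.9 TPM at 60 dpi, against 105, 25.9, 49.9 and 139 TPM at 7 dpi. Its change missed the threshold (limma adjusted p = 0.605). Its paralog id2b, added after its values were seen, had 17.9, 6.76 and 70.4 TPM at 60 dpi, against 0, 4.25, 11.25 and 2.18 TPM at 7 dpi. The id2b groups overlapped, and its change went the other way without passing (log2 fold change 2.53, limma adjusted p = 0.161).

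Some cytotoxic genes were barely listed beside the abundant NK-lysin. Granzyme K (gzmk) had 0, 0 and 0.63 TPM at 60 dpi, against 0, 0.53, 0.96 and 0 TPM at 7 dpi. ifng1, which encodes interferon gamma, was listed at 0 in every pool but 7 dpi replicate 3, where it had 4.19 TPM. Both were chosen after their values were seen. prf1.5, a further perforin gene chosen in the same way, had 7.23, 31.6 and 11.3 TPM at 60 dpi, against 7.96, 7.71, 7.42 and 0.09 TPM at 7 dpi (limma adjusted p = 0.365). Only prf1.5 and id2b, of the tested genes of the NK list, had a log2 fold change above 0.

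In the T cell list 1 of 23 tested genes fell and none rose, of 39 IDs (4.35% called lower, against 3.68% of all tested genes). The median log2 fold change was -1.41, and -0.88 without the 5 genes listed at 0 throughout 60 dpi. The gene that fell was lcp2a, an adaptor of T cell receptor signalling that myeloid cells also use and that is on the general leukocyte list too. It had 7.76, 0.75 and 0.07 TPM in replicates 1, 2 and 4 at 60 dpi, against 91.3, 57.6, 61.0 and 44.7 TPM in replicates 1 to 4 at 7 dpi (log2 fold change -4.62 ± 0.72, SE; limma adjusted p = 0.00363). txk, a T cell kinase gene, was listed at 0 in all 3 pools at 60 dpi, against 10.4, 6.34, 1.8 and 13.9 TPM at 7 dpi, and missed the threshold (limma adjusted p = 0.0543, passing in 4 of 17 alternatives). grap2b, an adaptor that binds LCP2, had 0, 6.5 and 11.1 TPM at 60 dpi, against 55.9, 29.6, 33.34 and 11.5 TPM at 7 dpi (limma adjusted p = 0.0881, and 0.0317 without replicate 4 of both groups). TCF7 and foxp3a, transcription factor genes of T cells, were listed at 0 throughout 60 dpi, against 0.85 to 31.1 and 0.48 to 5.69 TPM at 7 dpi, with limma adjusted p of 0.130 for TCF7 and 0.155 for foxp3a. PRKCQ, a kinase gene downstream of the T cell receptor, had 23.3, 22.8 and 51.3 TPM at 60 dpi, against 71.2, 25.2, 29.4 and 23.3 TPM at 7 dpi (limma adjusted p = 0.915). Without 7 dpi replicate 4, and without replicate 4 of both groups, 2 genes of this list were called.

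Defining T cell genes were unevenly listed in the sorted pools. cd247, the zeta chain of the T cell receptor complex, was listed at 0 in all 7 libraries. cd4-1 reached at most 1.26 TPM in any pool, in 60 dpi replicate 2. cd8a had 0.8, 0 and 12.4 TPM at 60 dpi, against 0, 0.20, 2.97 and 0 TPM at 7 dpi, and cd8b reached 0.83 TPM in 7 dpi replicate 2 and was listed at 0 elsewhere. cd4-2.2 had 6.6, 0.6 and 0 TPM at 60 dpi, against 2.24, 2.38, 3.79 and 0.77 TPM at 7 dpi, and cd28, a co-stimulatory receptor gene, had 18.6, 3.74 and 7.87 TPM, against 31.8, 5.75, 1.19 and 2.88 TPM. Both overlapped between the groups. The T cell list had 4 IDs with a mean of at least 10 TPM at 60 dpi and 8 at 7 dpi. These genes were named for this check of cell identity, outside the rule for named genes, and no names for the other chains of the CD3 complex were matched.

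In the B cell list 4 of 25 tested genes fell and none rose, of 29 IDs. Without members it was 3 of 23. The median log2 fold change was -0.47, and -0.45 without the 2 genes listed at 0 throughout 60 dpi. Besides ighm and cd79b the genes that fell were cd37 and BTK. Of these, cd79b and cd37 passed the filter only through the 7 dpi pools. cd37, a tetraspanin gene of B cells and other leukocytes, was listed at 0 in all 3 pools at 60 dpi, against 20.1, 12.96, 13.4 and 51.9 TPM in replicates 1 to 4 at 7 dpi (limma adjusted p = 0.00763, held in all 17 alternatives). BTK, a kinase gene of B cell receptor signalling that is also used by myeloid cells, had 5.62, 0 and 0.05 TPM at 60 dpi, against 36.1, 13.1, 15.6 and 10.7 TPM at 7 dpi. Its call (limma adjusted p = 0.0498) was lost in 12 of 17 alternatives, the fits without 60 dpi replicates 2 and 4 and without any one 7 dpi pool among them (0.0539 to 0.137). cd83, a gene of activated B and dendritic cells, had 103, 41.8 and 59.2 TPM at 60 dpi, against 259, 172, 116 and 129 TPM at 7 dpi, without overlap between the groups (limma adjusted p = 0.0676). Neither abundant ID of MEF2C, a transcription factor gene of muscle and B cells, was called. MEF2C (ENSDARG00000009418) had 111, 111 and 122 TPM at 60 dpi, against 190, 120, 177 and 160 TPM at 7 dpi (limma adjusted p = 0.377). MEF2C (ENSDARG00000029764) had 51.0, 11.5 and 152 TPM at 60 dpi, against 152, 13.7, 40.0 and 20.9 TPM at 7 dpi (0.892). The number called in this list was 2 without 60 dpi replicate 2 and without 7 dpi replicates 1, 2 and 3 in turn.

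**Figure D3:**
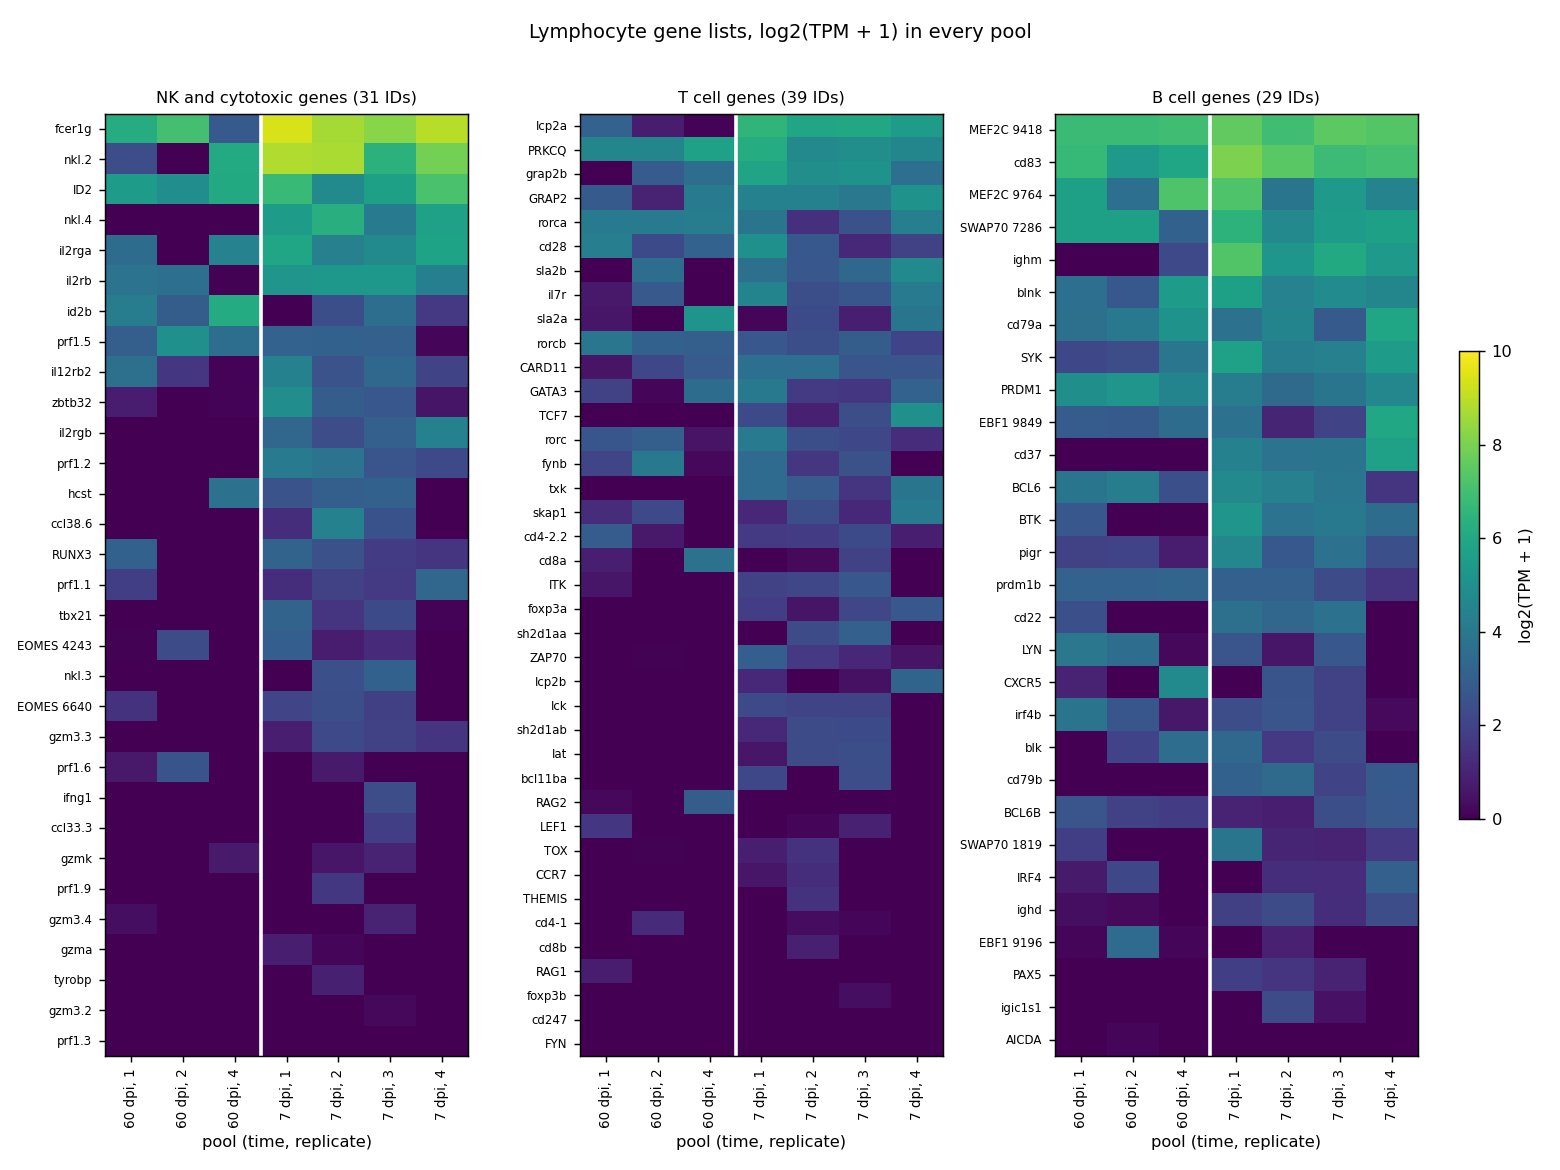
Level of every matched ID of the NK and cytotoxic, T cell and B cell lists as log2(TPM + 1), by colour, with 1 column for each pool (60 dpi left of the white line, 7 dpi right) and IDs ordered by mean TPM. Where IDs share a symbol the last digits of the ID follow it. nkl.2 and fcer1g are the brightest cytotoxic genes at 7 dpi, and few T cell genes (4 IDs at 60 dpi, 8 at 7 dpi) averaged at least 10 TPM.

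Docking and adaptor genes around receptors formed the list to which dok2 belongs. Of 28 IDs 24 were tested, and 4 fell and none rose (median log2 fold change -0.90). Without dok2 it was 3 of 23. DOK6, higher in every 60 dpi pool than in any at 7 dpi, was not among those tested. A gene seen only at 60 dpi had to reach 1 TPM in all 3 pools to be tested. A gene seen only at 7 dpi had to do so in 3 of 4. grb2b, which encodes an adaptor between receptors and RAS, had 45.7, 27.0 and 47.8 TPM in replicates 1, 2 and 4 at 60 dpi, against 233, 125, 172 and 302 TPM in replicates 1 to 4 at 7 dpi (log2 fold change -2.31 ± 0.38, SE; limma adjusted p = 0.00493). NCK1 (ENSDARG00000075369), which encodes a further adaptor, had 36.7, 45.0 and 19.3 TPM at 60 dpi, against 163, 93.4, 89.4 and 108 TPM at 7 dpi (limma adjusted p = 0.0214, lost in 5 of 17 alternatives, without 60 dpi replicate 4 and without 7 dpi replicate 1 among them, at 0.0591 and 0.0538). Its paralog, NCK1 (ENSDARG00000074262), had 16.4, 51.1 and 58.4 TPM at 60 dpi, against 151, 79.8, 104 and 55.1 TPM at 7 dpi, with overlapping groups (limma adjusted p = 0.150). PTPN6, a phosphatase gene of blood cells, had 5.28, 0.92 and 26.95 TPM at 60 dpi, against 70.0, 42.1, 36.6 and 103 TPM at 7 dpi. Its call (limma adjusted p = 0.0360) was lost in 8 of 17 alternatives, among them every single-library omission except that of 60 dpi replicate 4 (0.0600 to 0.103). INPP5D, which encodes a lipid phosphatase of leukocytes, had 3.97, 11.3 and 0 TPM at 60 dpi, against 39.4, 21.9, 18.4 and 52.4 TPM at 7 dpi (limma adjusted p = 0.0505).

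The T, B and NK lists together held 99 IDs, of which 68 were tested, 10 fell and none rose (median log2 fold change -1.31, or -0.88 without the 13 genes listed at 0 throughout 60 dpi). The share called lower was 14.7%, against 3.68% of all tested genes. Without members 7 of 62 tested genes fell (11.3%), and of these cd37, cd79b, prf1.2 and il2rgb passed the filter only through the 7 dpi pools. Without 7 dpi replicate 1 the number called was 4, and without 60 dpi replicate 2 or 7 dpi replicate 3 it was 6, and without replicate 4 of both groups it was 12. General leukocyte markers, such as ptprc and coro1a, had 19 of 28 tested genes lower and none higher (67.9% called; median -2.14), and the macrophage list had 19 of 31 lower and none higher (61.3% called; median -2.23). In the neutrophil list 3 of 12 were lower and none higher (median -2.97). Of 21 fibroblast and matrix IDs 5 rose and 5 fell (median 0.00), none of 18 tested endothelial genes was called by limma, and 1 of 19 cardiomyocyte genes rose. That gene was MYL7, with 195, 1389 and 1319 TPM in replicates 1, 2 and 4 at 60 dpi, against 135, 277, 139 and 99.7 TPM in replicates 1 to 4 at 7 dpi. Its groups overlapped, and its call (limma adjusted p = 0.0467) was lost in 14 of 17 alternatives, among them every single-library omission except those of 60 dpi replicate 1 and 7 dpi replicate 2 (0.0958 to 0.164).

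**Figure D4:**
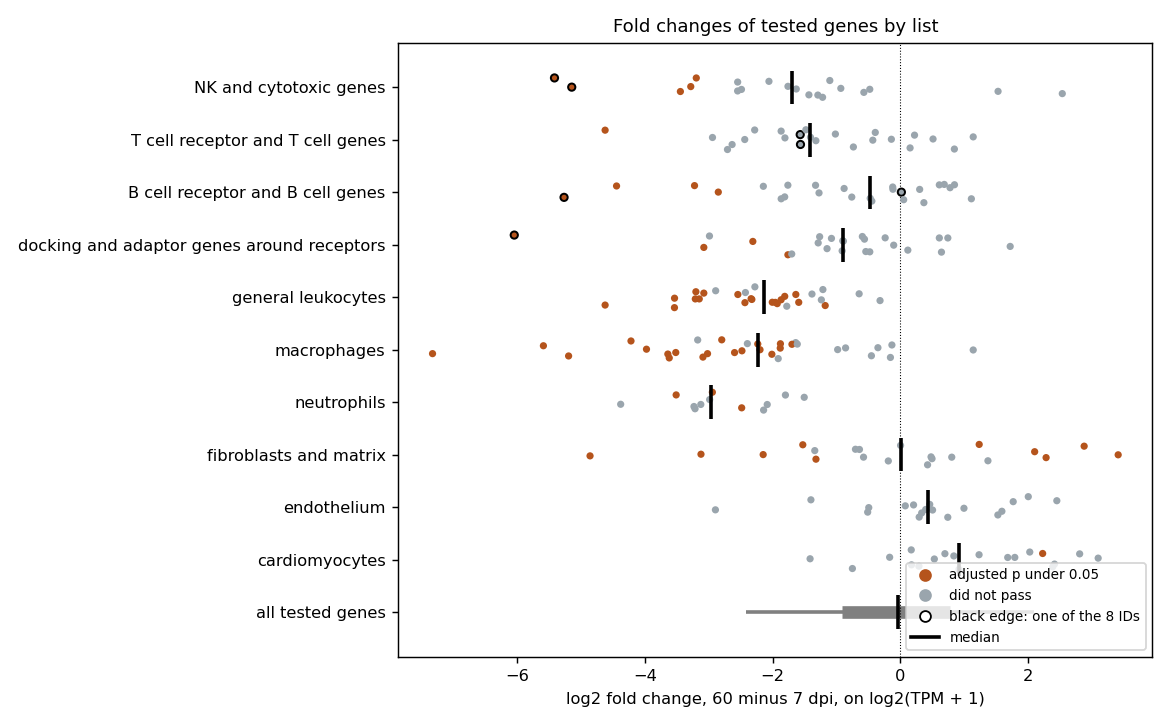
Log2 fold change (60 minus 7 dpi, on log2(TPM + 1)) of every tested gene of 10 lists, 1 row a list, with the median as a black bar. Orange points passed an adjusted p of 0.05, black edges mark the members, and the lowest row gives the middle 50% (thick) and 90% (thin) of all tested genes. nkl.2, nkl.4, ighm and dok2 lie left of every tested gene that is not a member on their NK, B cell and adaptor rows, and cd79a lies at 0.

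Summed levels of the marker lists moved with these results. General leukocyte markers summed to between 2658 and 5235 TPM at 60 dpi, against 8430 to 11508 TPM at 7 dpi. Macrophage markers summed to 1600 to 2985 TPM, against 6550 to 11251 TPM. The T cell list summed to 107 to 182 TPM, against 219 to 418 TPM, the B cell list to 346 to 524 TPM, against 544 to 1160 TPM, and the NK list to 194 to 256 TPM, against 605 to 1475 TPM. These ranges did not overlap over all matched IDs. In the T cell and B cell lists that depended on which IDs were kept, as sums chosen after the values were seen show. Without its 2 members, ighm and cd79a, the B cell list summed to 331 to 488 TPM, against 484 to 991 TPM, and the ranges overlapped. Without the 2 IDs that non-lymphocyte lists also hold, lcp2a among them, the T cell list summed to 104 to 182 TPM, against 161 to 326 TPM, and overlapped too. Without its members, lck and zap70, the T cell list stayed apart, at 107 to 182 TPM, against 214 to 408 TPM. With both kinds of ID left out it overlapped (104 to 182 TPM, against 156 to 315 TPM). The T, B and NK lists together stayed apart under each of these exclusions. With both kinds left out they summed to 570 to 662 TPM, against 1011 to 1926.5 TPM. The NK list without its 3 members summed to 188 to 218 TPM, against 496 to 985 TPM, and stayed apart. Most of that sum at 7 dpi was fcer1g, which myeloid cells also use. It had 6.14 to 128 TPM at 60 dpi, against 297 to 667 TPM at 7 dpi, and was singled out here after the values were seen. With the IDs that non-lymphocyte lists also hold left out as well, the NK list summed to 51.3 to 182 TPM, against 434 to 879 TPM. How far the separation of the NK list rested on fcer1g was not tested. The fibroblast and matrix list summed to 9095 to 11003 TPM at 60 dpi, against 8137 to 11006 TPM at 7 dpi, and the cardiomyocyte list to 469 to 4979 TPM, against 462 to 989 TPM. The part of each cell type's markers in the change of the members was not tested.

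Set against the summed TPM of the 29 general leukocyte IDs of the same library, a description added after the values were seen, some members overlapped between the groups and others did not. Most of that sum was cd74a and cd74b in every pool, as with 3209 and 992 of 5235 TPM in 60 dpi replicate 4. Their log2 fold changes were -1.18 and -1.64, against a list median of -2.14. The sum thus fell less than most of its genes, and a fall beyond that of leukocytes in general was not tested. nkl.2 equalled 0.130, 0 and 1.31% of that sum in replicates 1, 2 and 4 at 60 dpi, against 3.87, 5.09, 1.01 and 2.30% in replicates 1 to 4 at 7 dpi, and the groups overlapped. nkl.4, its neighbour, equalled 0% in all 3 pools at 60 dpi, against 0.390, 0.939, 0.191 and 0.496% at 7 dpi, and did not overlap. A gene listed at 0 stays at 0 on any such scale, so this outcome was fixed in advance. It was also set by the TPM values for dok2, zap70 and ighm, which had at most 0.26, 0.05 and 3.58 TPM at 60 dpi. At 7 dpi these genes had at least 46.8, 0.45 and 37.5 TPM. The leukocyte sum, 2658 to 11508 TPM over all pools, varied too little to close these gaps. dok2 equalled 0.00755, 0.00978 and 0% at 60 dpi, against 1.14, 0.698, 1.05 and 0.453% at 7 dpi. ighm equalled 0, 0 and 0.0684% at 60 dpi, against 1.36, 0.445, 0.773 and 0.388% at 7 dpi. Neither dok2 nor ighm overlapped between groups on this measure, and zap70 did not either (at most 0.00188% at 60 dpi, against 0.00436 to 0.0608% at 7 dpi). cd79a equalled 0.374, 0.575 and 0.635% at 60 dpi, against 0.110, 0.260, 0.0725 and 0.564% at 7 dpi, so that 7 dpi replicate 4 alone reached into the 60 dpi range.

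**Figure D5:**
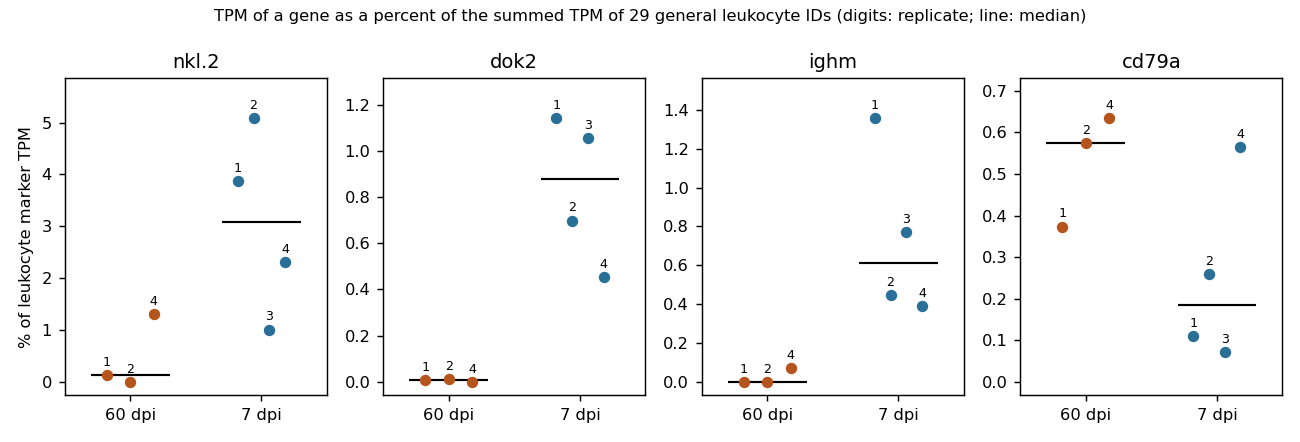
TPM of nkl.2, dok2, ighm and cd79a as a percent of the summed TPM of 29 general leukocyte IDs in the same pool, with 60 dpi on the left and 7 dpi on the right of each panel. Points are pools labelled by replicate and lines are group medians. Most of the sum is cd74a and cd74b in every pool. dok2 and ighm stay apart between the groups, an outcome that their low TPM at 60 dpi fixed in advance. nkl.2 overlaps through 60 dpi replicate 4 (1.31%), and cd79a lies higher at 60 dpi than in 3 of the 4 pools at 7 dpi.

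The genes whose pattern was most like each tested member, by Pearson r of log2(TPM + 1) over the 7 libraries, were named for each. The measure does not separate a shared difference between times from likeness within a time. For dok2 they were si:ch211-165i18.2 (r = 0.997) and sb:cb1058 (r = 0.996). sb:cb1058 was listed at 0 in all 3 pools at 60 dpi, against 76.9, 53.9, 66.5 and 50.6 TPM in replicates 1 to 4 at 7 dpi. For ighm they were c1ql1 and ctss2.2, a cathepsin S gene that is on the macrophage list (r = 0.996 for both). c1ql1 had 50.3, 60.5 and 116 TPM at 60 dpi, against 508, 268, 383 and 328 TPM at 7 dpi. ctss2.2 had 69.8, 62.2 and 147 TPM at 60 dpi, against 883, 491, 544 and 564 TPM at 7 dpi. Like ighm, both were highest in replicate 4 at 60 dpi and in replicate 1 at 7 dpi.

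For nkl.2 the most alike were si:dkey-21e2.10 (r = 0.983), with 0.45, 0 and 13.7 TPM at 60 dpi, against 120, 92.4, 22.9 and 83.9 TPM at 7 dpi, and the ZC3H12A ID ENSDARG00000101034 (r = 0.982), which encodes an RNase that limits inflammatory transcripts. The first shared the low replicate 3 at 7 dpi and the high replicate 4 at 60 dpi with nkl.2. For nkl.4 they were PSMB8 (r = 0.986), which encodes a subunit of the immunoproteasome, and ENSDARG00000078193 (r = 0.983). PSMB8 was listed at 0 in all 3 pools at 60 dpi, against 33.0, 21.8, 14.1 and 29.8 TPM at 7 dpi. For lck they were the MFAP4 ID ENSDARG00000088745 (r = 0.998) and si:ch211-133n4.7 (r = 0.997), both listed at 0 in 7 dpi replicate 4 as lck was. For zap70 they were PLCG1 (r = 0.974), a phospholipase gene that acts after the T cell receptor and many others, and zbtb32 (r = 0.972). For cd79a they were snap23.2 (r = 0.963) and RWDD1 (r = 0.946), neither of which was called (limma adjusted p = 0.951 and 0.824).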

How the data were processed

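RNA of mCherry-positive cell pools was amplified from 0.2 to 0.6 ng and sequenced as 60-base single reads, per the labels' protocols. The authors deposited 1 table of TPM per gene ID. Per the submitters' processing notes, CASAVA 1.8.2, cutadapt and RSEM 1.2.25 were used with build Zv9. Which aligner and annotation release were used is not given in the sources used here. Titles gave the groups and replicate numbers. The supplied name table gave a symbol to 25925 IDs (82.6%). Genes with at least 1 TPM in at least 3 libraries were fitted on log2(TPM + 1) with limma 3.58.1 in R 4.3.3, with 1 term for time and with a mean-variance trend. P-values are two-sided and adjusted by Benjamini-Hochberg over all 15130 tested genes; they measure only the spread between these pools. The fit was tested on simulated data. Tables were made with pandas 2.3.3 and numpy 2.4.6 in Python 3.11.15, and figures with matplotlib 3.10.9.

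The members and lists were chosen with earlier results of these data known. Of 112 entries in the T, B and NK lists 82 matched an ID, with or without a final paralog letter. Of the other lists, dendritic and antigen presenting cells had 2 of 13 tested genes lower, erythrocytes and thrombocytes 5 of 19 lower, and genes every cell uses 5 higher and 2 lower of 22. Named genes were all members, from each of the NK, T, B and adaptor lists up to 5 with the smallest p and 3 with the highest mean TPM, the 2 with the highest mean TPM of each other list, and for each tested member the 2 most alike whose mean reached 10 TPM at either time. The alternatives changed the pseudocount, the filter, the scaling, the trend, a replicate block, and single libraries.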

Additional observations from a re-analysis of the deposited data

Results flagged for a closer look

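In 5 of 59 genes examined a 7 dpi pool lay apart from the other 3, by the ratio of its gap to the range of the group (Dixon's test), which chance gives in about 1 of 20 groups, so about 3 of the 59. lck was listed at 0 TPM in replicate 4, with 3.09 TPM in the nearest pool. TCF7 had 31.1 TPM in replicate 4, with 4.28 TPM in the nearest. PRKCQ had 71.2 TPM in replicate 1, with 29.4 TPM in the nearest. NCF1, an oxidase subunit gene of phagocytes, had 136 TPM in replicate 4, with 170 TPM in the nearest. The haemoglobin gene hbaa2 had 987 TPM in replicate 4, with 322 TPM in the nearest. Of these 5 pools 4 are replicate 4, the library with the fewest detected IDs.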

How the results depend on the processing

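The directions of nkl.2, nkl.4, ighm, dok2, lck and zap70 were the same in every alternative in which they were tested. For nkl.4, dok2, lck and zap70, at or near 0 TPM in every 60 dpi pool, this was nearly fixed in advance and says little. The total of 1041 called genes was 596 with no filter, 477 without the trend, and 581 to 1181 without single replicates. Calls in the T, B and NK lists together (10) were 6 with a pseudocount of 5, 4 with no filter, and 4 to 10 without single replicates. T cell calls (1) were 2 with a pseudocount of 0.5, median ratio scaling, scaling over IDs with a symbol, no trend, and without replicate 4 of both groups, and 1 to 2 without single replicates. B cell calls (4) were 2 with a pseudocount of 5 and with no filter, and 2 to 4 without single replicates. NK calls (5) were 3 with a pseudocount of 5, 1 with no filter, 3 without the trend, and 1 to 5 without single replicates. Members called (4) were 3 to 5 without single replicates. Same-numbered pools of the 2 times did not deviate together (r = 0.00540, 0.0145 and 0.0280 for numbers 1, 2 and 4, and at 60 dpi numbers 2 and 4 were closest to their own number and number 1 to number 3). With the replicate number as a block 322 genes were called, 6 in the T, B and NK lists together, 2 in the B cell list, 3 in the NK list and 4 members.

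Signs turned only in genes that were not called. The log2 fold change of cd79a (0.01) was -0.031 with a pseudocount of 5, -0.030 with median ratio scaling, -0.24 with scaling over IDs with a symbol, -0.46 with the replicate block and -0.46 to 0.56 without single replicates. snap23.2 was -0.19 with scaling over IDs with a symbol, -0.096 with the block and -0.096 to 0.29 without single replicates. Without single replicates PRKCQ lay between -0.52 and 0.21, MEF2C (ENSDARG00000029764) between -0.56 and 1.24, FLI1 between -0.66 and 0.87, hbaa1 between -1.49 and 0.065 and hbaa2 between -1.71 and 0.17. Without replicate 4 of both groups MEF2C (ENSDARG00000029764) was -0.82 and FLI1 -1.0. With quantile normalization col1a1a was -0.020 and FLI1 -0.086, and FLI1 was -0.035 with scaling over IDs with a symbol. The cause of these changes was not tested. TPM keep no depth, so a value of 0 sets no limit on the level.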
